A study of Homo sapiens with 12 samples.

Results

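The levels of 10 long noncoding RNAs (lncRNAs) with a record in cancer research were examined in the ovarian cancer line PEO1, an established line of human origin: UCA1, NEAT1, MALAT1, GAS5, SNHG1, DANCR, PVT1, TUG1, H19 and MEG3. They were taken by gene symbol and made up 10 of the 57773 rows of a table of RNA-seq counts. The choice was made with earlier results of these data known, and all 10 are reported whatever their values. The series concerns mutant p53, activity of the estrogen receptor and response to endocrine therapy. Cells carried either the empty lentiviral vector pLKO.1 or the hairpin shp53 against the p53 transcript, were grown in serum with puromycin, and had either no drug (0 h) or 10 μM fulvestrant for 48 h. Fulvestrant is an antagonist and degrader of the estrogen receptor. Each of the 4 groups held 3 libraries made with a stranded mRNA kit, with 21581887 to 28481541 counts per library. The treatment protocol pairs fulvestrant with 100 pM estradiol (E2). The labels leave unstated whether untreated cells had it too, so in the fulvestrant comparisons the drug, the hours in culture and estradiol cannot be told apart. A single hairpin was used, so the loss of p53 and any other action of that hairpin cannot be told apart. Separate cultures are not named for the 3 libraries per group, and p-values therefore measure the spread between these libraries, which may be technical.

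GREB1, a classical target of the estrogen receptor, lay at 38.5 to 69.0 CPM (counts scaled to a common library size) in untreated and 5.28 to 6.03 CPM in fulvestrant libraries. All 11 markers of an epithelial, Müllerian-type carcinoma line exceeded 10 counts, with median levels of 2489 CPM for KRT7, 409.7 for EPCAM and 99.1 for PAX8. Of 15 markers of other cell types, 8 did so, with CD68 at a median of 57.6 CPM, the mesothelial MSLN at 100.2, and COL1A1 at 33 to 182 counts, while PTPRC reached at most 5 counts and COL3A1 and LUM had 0 in every library. Libraries of a group differed by more than sampling noise. Library 3 of pLKO.1 with fulvestrant stood furthest from its group, with a chi-square per gene of 80.6 against library 1, where other pairs of libraries ranged from 2.34 to 41.3, and values without it are given where they change a call.

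LncRNAs are transcribed and often spliced like messenger RNAs but are not known mainly for a protein product. Some build nuclear bodies, as NEAT1 does for paraspeckles; some carry small nucleolar RNAs (snoRNAs) in their introns, as GAS5, SNHG1 and DANCR do; and others, such as H19 and MEG3, are imprinted, being expressed from the maternal chromosome. NEAT1 in its long form and MALAT1 end without a conventional poly(A) tail, in an A-rich tract that folds with 2 upstream T-rich stretches into a triple helix. Spliced RNAs of snoRNA hosts often begin with a run of pyrimidines, as do messenger RNAs of the translation machinery.

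Sequences are shown for these features. The 3′ stretches below come from GENCODE 29 (GRCh38), with the A-rich tract and the T-rich stretches in capitals. The MALAT1 stretch is chr11:65506022-65506116 on the plus strand, bases 8261 to 8355 of the 8708-base transcript, and the NEAT1 stretch is chr11:65445446-65445540 on the plus strand, the last 95 bases of the 22743-base transcript.
MALAT1: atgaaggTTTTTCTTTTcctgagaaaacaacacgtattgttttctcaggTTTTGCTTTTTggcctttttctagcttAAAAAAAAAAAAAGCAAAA
NEAT1: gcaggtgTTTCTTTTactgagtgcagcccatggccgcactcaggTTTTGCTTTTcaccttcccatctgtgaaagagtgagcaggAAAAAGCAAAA
For the snoRNA hosts, 50 bases on each side of the RefSeq start (GRCh38.p14) are given, with the longest pyrimidine run after the start in capitals. It had 8 bases from position 32 in GAS5 (chr1:173868996-173869095, minus strand) and 7 bases from position 5 in SNHG1 (chr11:62855836-62855935, minus strand).
GAS5: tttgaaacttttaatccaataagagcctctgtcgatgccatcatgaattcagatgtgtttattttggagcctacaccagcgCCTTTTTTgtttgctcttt
SNHG1: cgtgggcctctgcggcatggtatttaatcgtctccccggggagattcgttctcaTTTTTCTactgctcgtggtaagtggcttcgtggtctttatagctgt
Of the lncRNAs searched for it (below), TUG1 alone had an E-box, CACGTG (in capitals), at position -77 from its RefSeq start (GRCh38.p14, chr22:30969165-30969284, plus strand).
TUG1: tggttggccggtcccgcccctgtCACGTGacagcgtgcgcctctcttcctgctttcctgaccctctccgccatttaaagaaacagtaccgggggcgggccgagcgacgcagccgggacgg

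RefSeq promoter windows (250 bases before to 50 after the start) were at hand for 7 of the 10 lncRNAs (10 windows, as some have several starts) and were searched on both strands. UCA1, NEAT1 and PVT1 had no window in use and were not searched, so nothing is known here of motifs at their starts. The palindromic estrogen response element GGTCANNNTGACC was in none of the 7, and in 0.0659% of the windows of 27305 genes (1 window per gene). The p53 half-site motif was likewise in none, and in 6.54% of all windows. CACGTG was in the window of TUG1 alone and in 7.43% of all windows. A C followed by 4 T (CTTTT) was in those of GAS5, SNHG1, MALAT1 and MEG3 and in 49.3% of all windows. A match or its lack describes these letters in these windows only.

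Of the 10 lncRNAs, 8 passed the filter on low counts, from PVT1 at 372 to 733 counts per library to NEAT1 at 8716 to 19032. Together the 10 rows took 0.107% to 0.125% of the counts in untreated pLKO.1 libraries and 0.192% to 0.216% in shp53 libraries with fulvestrant. CPM values are not divided by length, so they compare a gene across libraries and not one lncRNA with another. With p53 knockdown in untreated cells, 1 of the 8 rose and none fell (edgeR quasi-likelihood test, adjusted p under 0.05 over 15715 genes), where 1.02% of all genes tested rose. In fulvestrant, knockdown libraries had 2 of 8 higher and none lower, where 4.28% of all genes were higher. Fulvestrant in pLKO.1 cells raised 5 of 8 and lowered 2, against 13.4% of all genes raised and 14.3% lowered. In shp53 cells it again raised 5 and lowered 2, against 21.3% raised and 19.6% lowered. The median log2 fold changes over the 8 in these 4 comparisons, in the same order, were 0.13, 0.19, 0.39 and 0.58, while the medians over all genes lay between -0.01 and 0.00. The comparisons share libraries and their values are therefore not independent of each other.

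**Figure D1:**
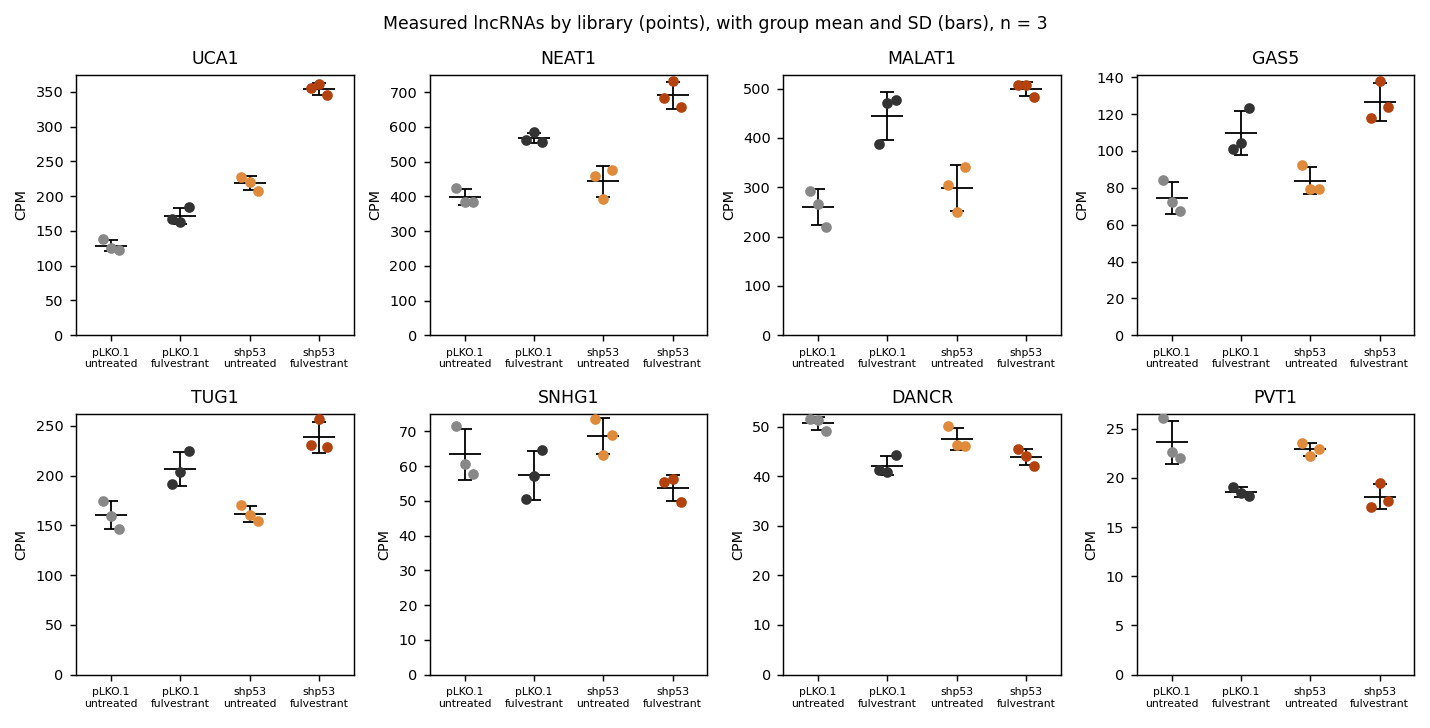
Level of each measured lncRNA in CPM (y axis, from 0) in the 4 groups (x axis), with 1 point per library and the group mean ± SD of 3 libraries. UCA1 forms 4 separate levels from 129 to 354 CPM, NEAT1, MALAT1, GAS5 and TUG1 are higher with fulvestrant in both cell types, and PVT1 is lower.

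UCA1, first described in bladder carcinoma and much studied in drug resistance, was the single lncRNA of the 10 that rose with p53 knockdown in untreated cells. Its libraries read 138, 125 and 123 CPM in untreated pLKO.1 cells and 227, 221 and 207 CPM in untreated shp53 cells. With fulvestrant they read 166, 162 and 184 CPM in pLKO.1 and 356, 362 and 345 CPM in shp53 cells. No library of any group overlapped with another group, and the order was pLKO.1 untreated, pLKO.1 with fulvestrant, shp53 untreated, shp53 with fulvestrant. The middle groups of that order differ in both hairpin and drug and were not tested against each other. Here and below, a lack of overlap only describes 3 libraries against 3. The share of all genes without overlap was not counted.

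The knockdown difference in UCA1 was 0.76 on the log2 scale without drug (SE 0.06, edgeR adjusted p = 0.000185), from 129 ± 8.34 to 218 ± 10.1 CPM (SD, n = 3). With fulvestrant it was 1.05 (SE 0.06, adjusted p = 1.9e-05), from 171 ± 11.5 to 354 ± 8.30 CPM, so the fitted fold was 2.07. Fulvestrant raised UCA1 by 0.41 in pLKO.1 (SE 0.06, adjusted p = 0.000934) and by 0.70 in shp53 cells (SE 0.06, adjusted p = 1.22e-05). The response in shp53 cells exceeded that in pLKO.1 cells by 0.29 (SE 0.09), which had an unadjusted edgeR p of 0.00868 and did not pass after adjustment (adjusted p = 0.378). The mean in the highest group was 2.75 times that in the lowest.

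The genes whose log2 CPM followed UCA1 most closely over the 12 libraries were C12orf36 (Pearson r = 0.995), SIPA1L2 (r = 0.991) and ESR1 (r = 0.987), out of 12724 genes compared. All 3 rose with knockdown. They were picked for a pattern like that of UCA1, which rose too, so their rise is no separate result. ESR1, the gene of the estrogen receptor alpha itself, went from 134 ± 5.79 to 164 ± 4.34 CPM with knockdown in untreated cells and from 154 ± 4.24 to 213 ± 0.996 CPM in fulvestrant (adjusted p = 0.00866 and 0.000244). C12orf36 went from 8.45 ± 0.966 to 16.4 ± 0.821 CPM and from 11.1 ± 0.509 to 28.6 ± 2.10 CPM in the same comparisons. The 12 points fall into 4 groups, so such r values mostly describe the order of the groups and are given without a test.

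NEAT1 and MALAT1, neighbours on chromosome 11 and RNAs of paraspeckles and of nuclear speckles, both rose with fulvestrant. NEAT1 read 425, 385 and 384 CPM in untreated pLKO.1 libraries and 564, 585 and 555 CPM with fulvestrant. The shp53 libraries read 459.9, 393 and 476 CPM untreated and 683, 733 and 658 CPM with the drug. Fulvestrant and untreated libraries did not overlap in either cell type. The changes were 0.51 on the log2 scale in pLKO.1 (SE 0.08, adjusted p = 0.000621) and 0.64 in shp53 cells (SE 0.08, adjusted p = 6.97e-05).

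NEAT1 was also higher in shp53 than in pLKO.1 cells with fulvestrant, by 0.28 (SE 0.08), with an adjusted p of 0.0491 at the edge of the threshold. That call was lost with each single library left out (adjusted p 0.0547 to 0.259) and with a GC correction (0.17, adjusted p = 0.269), and it held in DESeq2 (adjusted p = 0.033). Without drug the difference was 0.16 (adjusted p = 0.575), and the untreated groups overlapped.

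MALAT1 read 293, 267 and 219.8 CPM in untreated pLKO.1 and 388, 470.4 and 476 CPM in pLKO.1 with fulvestrant. The shp53 libraries had 305, 249 and 341 CPM untreated and 508, 508 and 484 CPM with the drug. Every drug library lay above every untreated one. The rise was 0.78 in pLKO.1 (SE 0.13, adjusted p = 0.00142) and 0.74 in shp53 cells (SE 0.13, adjusted p = 0.00105), the largest of the fulvestrant changes among the 8 lncRNAs in this fit. Knockdown left MALAT1 with differences of 0.20 (adjusted p = 0.786) and 0.17 (adjusted p = 0.479), which did not pass. With a library left out they ranged from 0.09 to 0.31 and from 0.05 to 0.25, and the GC correction gave 0.08 in fulvestrant.

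Both RNAs were counted in libraries that select poly(A) RNA. The NEAT1 row sums 4 transcripts, with long ones of 3441 to 22743 bases and the short MIR612 among them, so the short polyadenylated form and the long paraspeckle-building form cannot be told apart here. MALAT1 and NEAT1 moved together over the 12 libraries (r = 0.959) and also within groups (r = 0.739 of the deviations from group means). All 28 pairs of the 8 lncRNAs had a positive r within groups. Transcripts of the mitochondrial genome, polyadenylated RNAs of another compartment, summed to 1521 to 1815 CPM in untreated pLKO.1, 1851 to 2096 with fulvestrant, 1699 to 2152 in untreated shp53 and 2161 to 2564 in shp53 with fulvestrant. Of 13 such genes, 2 rose and 1 fell with fulvestrant in pLKO.1 cells, where 13.4% of all genes rose and 14.3% fell. In shp53 cells 7 rose and none fell, where 21.3% of all genes rose and 19.6% fell. The part of mitochondrial transcripts in the rise of the nuclear RNAs was not tested.

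Genes for proteins of paraspeckles and speckles fell more often than they rose while NEAT1 and MALAT1 were higher. Of 32 tested, 15 fell and 2 rose with fulvestrant in pLKO.1 cells, and 19 fell and 3 rose in shp53 cells, with median log2 changes of -0.23 and -0.27. Among all genes 14.3% fell and 13.4% rose in pLKO.1, and 19.6% fell and 21.3% rose in shp53 cells, with medians of -0.01 in both. The splicing factor SRSF1 went from 351 ± 13.5 to 232 ± 5.61 CPM in pLKO.1 and from 322 ± 4.01 to 204 ± 5.67 CPM in shp53 cells (adjusted p = 8.46e-06 and 1.62e-06). SRSF2 changed by -0.53 and -0.57 and EWSR1 by -0.22 and -0.30. Of the core paraspeckle proteins, SFPQ fell from 250 ± 21.6 to 188 ± 16.5 CPM and from 241 ± 10.6 to 178 ± 6.04 CPM (adjusted p = 0.00248 and 0.00104). Its partner NONO had differences of 0.01 and 0.06 that did not pass. Knockdown changed none of the 32 in untreated cells (edgeR, with 2 at an unadjusted p under 0.05 and 0 in DESeq2), where 1.58% of all genes were called. In fulvestrant it changed SRSF1 alone, by -0.19 (adjusted p = 0.0282), where 7.02% of all genes were called.

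**Figure D2:**
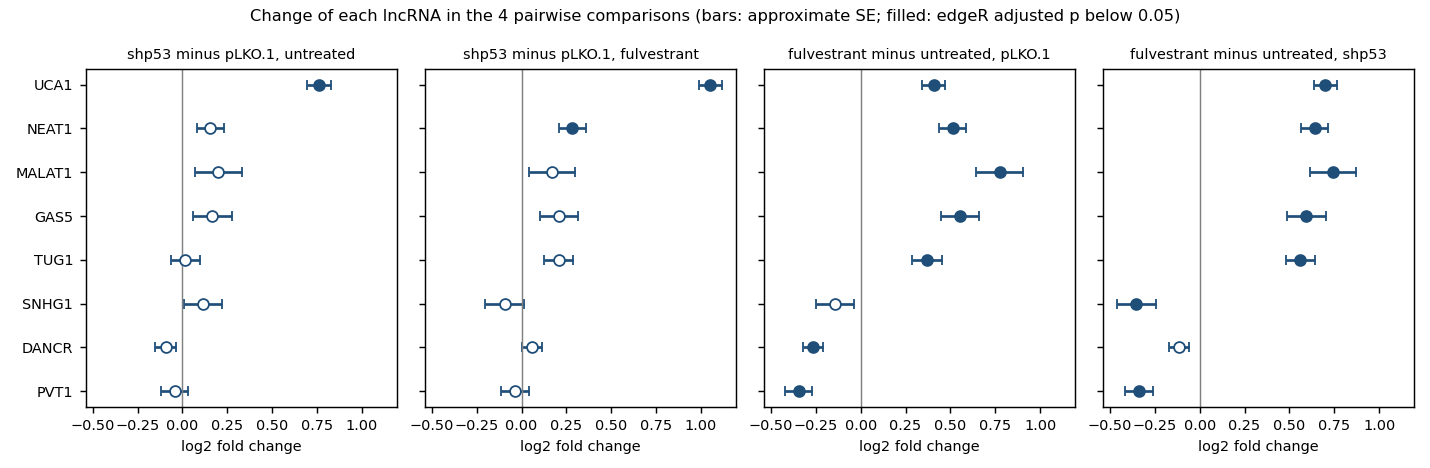
Log2 fold change (x axis) of the 8 measured lncRNAs (y axis) in the 4 comparisons, with bars of 1 approximate SE and filled points for an adjusted p under 0.05. UCA1 is filled in all 4 panels, NEAT1 in 3, and MALAT1, GAS5, TUG1 and PVT1 in both fulvestrant panels.

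The 3 snoRNA hosts among the 10 lncRNAs did not move as a set: GAS5 rose with fulvestrant. SNHG1 and DANCR had negative estimates in both cell types, which passed in 1 cell type each. GAS5, named for its accumulation in growth-arrested cells, read 84.2, 72.2 and 67.3 CPM in untreated pLKO.1 and 101, 104 and 123 CPM with fulvestrant. In shp53 cells it read 92.2, 79.4 and 79.6 CPM untreated and 118, 138 and 124 CPM with the drug, with no overlap of drug and untreated libraries. The rise was 0.55 (SE 0.11, adjusted p = 0.00309) in pLKO.1 and 0.59 (SE 0.11, adjusted p = 0.00121) in shp53 cells. Knockdown differences of 0.17 (adjusted p = 0.781) and 0.21 (adjusted p = 0.3) did not pass.

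SNHG1, the host of a cluster of box C/D snoRNAs, read 71.6, 60.7 and 57.7 CPM in untreated pLKO.1 and 50.5, 57.0 and 64.5 CPM with fulvestrant, which overlap. For shp53 cells the values were 73.7, 63.2 and 68.8 CPM untreated and 55.4, 56.2 and 49.5 CPM with the drug, which do not. The change was -0.14 (SE 0.11, adjusted p = 0.374) in pLKO.1 and -0.35 (SE 0.11, adjusted p = 0.0224) in shp53 cells. With a library left out, the pLKO.1 value ranged from -0.27 (without fulvestrant library 3) to -0.04 (without fulvestrant library 1), with -0.05 without untreated library 1. The call in shp53 cells was lost without library 1 or 3 of either shp53 group (adjusted p 0.058 to 0.117) and with upper quartile scaling (-0.27, adjusted p = 0.111). A GC correction gave -0.50 there and added a call in pLKO.1 (-0.22, adjusted p = 0.0148). The SNHG1 row sums 34 transcripts, 7 of them small RNAs, and the GAS5 row sums 36. Both rows include forms with retained introns, so spliced host RNAs cannot be told apart from other forms.

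DANCR, which overlaps SNORA26 and is known for holding progenitor cells undifferentiated, read 51.5, 51.5 and 49.2 CPM in untreated pLKO.1 and 41.3, 40.8 and 44.4 CPM with fulvestrant. In shp53 cells it read 50.1, 46.4 and 46.1 CPM untreated and 45.5, 44.1 and 42.2 CPM with the drug. These do not overlap, which is a description only, and the test did not pass. The change was -0.27 (SE 0.06, adjusted p = 0.00575) in pLKO.1 and -0.11 (SE 0.06, adjusted p = 0.134) in shp53 cells, where it passed with a minimum of 10 counts in 3 libraries as the filter (-0.15, adjusted p = 0.0323). The pLKO.1 call was lost without fulvestrant library 2 (adjusted p = 0.073) and with upper quartile scaling (-0.20, adjusted p = 0.0842). The difference between the cell types was 0.15 (SE 0.08, adjusted p = 0.769), so a smaller fall in shp53 cells was not shown.

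Other snoRNA hosts also went both ways. Of 18 tested, 5 rose and 2 fell with fulvestrant in pLKO.1, where 13.4% of all genes rose and 14.3% fell, and 5 rose and 5 fell in shp53 cells, where 21.3% rose and 19.6% fell. The medians were -0.05 and -0.08, and most of these counts lie near the shares over all genes. ZFAS1 rose from 142 ± 8.77 to 215 ± 22.2 CPM and from 141 ± 11.2 to 242 ± 14.2 CPM (0.60 and 0.78, adjusted p = 0.000575 and 4.72e-05). SNHG5 rose by 0.42 and 0.54 and SNHG18 by 0.76 and 0.91. SNHG15 fell from 15.9 ± 0.968 to 11.7 ± 0.644 CPM and from 16.3 ± 0.736 to 9.63 ± 0.507 CPM (adjusted p = 0.00158 and 2.46e-05), and SNHG17 changed by -0.43 and -0.56. Knockdown changed none of the 18 in untreated cells (edgeR, with 2 at an unadjusted p under 0.05 and 0 in DESeq2), where 1.58% of all genes were called. With fulvestrant it changed 1, SNHG18, by 0.47 (adjusted p = 0.0223), where DESeq2 called 0 of the 18 and edgeR called 7.02% of all genes.

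**Figure D3:**
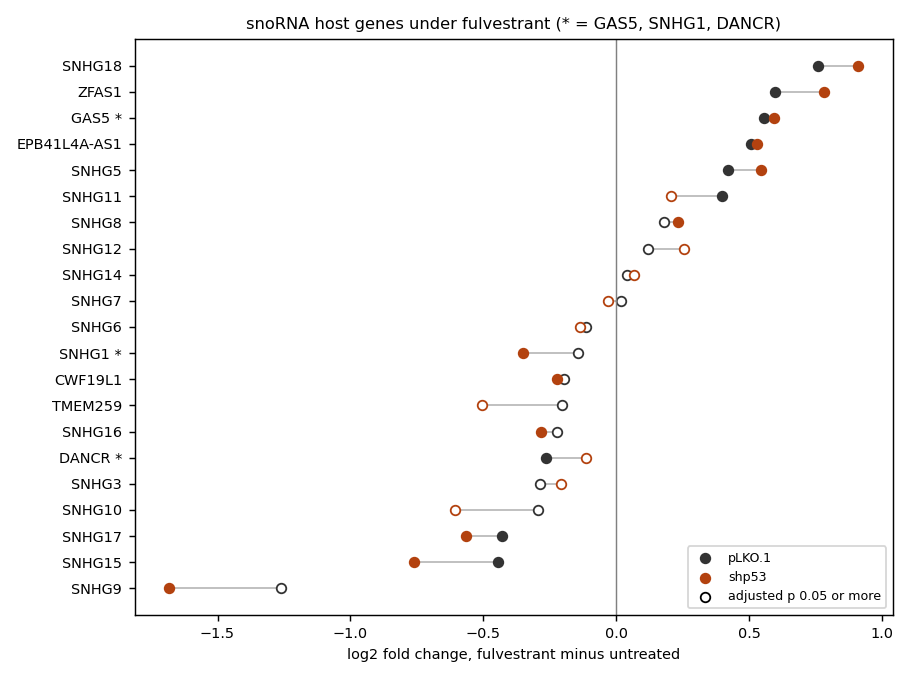
Log2 fold change with fulvestrant (x axis) of the snoRNA host genes tested (y axis) in pLKO.1 (black) and shp53 (orange) cells, filled where the adjusted p is under 0.05, with GAS5, SNHG1 and DANCR starred. GAS5 lies beside ZFAS1 and SNHG5 on the right, and SNHG1 and DANCR lie left of 0 between hosts that moved little and hosts that fell further.

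Of 24 coding genes known for pyrimidine-led starts, most of them of translation, 7 rose and 2 fell with fulvestrant in pLKO.1. In shp53 cells 10 rose and 1 fell, and the medians in pLKO.1 and shp53 cells were 0.12 and 0.15. HNRNPA1 is in this list and also among the paraspeckle and speckle genes above. Among all genes 13.4% rose and 14.3% fell in pLKO.1, and 21.3% rose and 19.6% fell in shp53 cells. The longest pyrimidine run in the GAS5 sequence above does not lie at its RefSeq start. TPT1 rose by 0.36 and 0.47 and EIF4A2 by 0.43 and 0.60, while the importin IPO5 fell by 0.36 and 0.55 on the log2 scale. Of 18 factors of nonsense-mediated decay, the pathway that degrades spliced GAS5, 2 fell in pLKO.1 and 3 fell and 1 rose in shp53 cells, which is no more than the 14.3% and 19.6% lower among all genes would give. Of these, EIF4A3 and MAGOH, parts of the exon junction complex, fell in both. UPF1, the central helicase of the pathway, had differences of -0.27 and -0.51 that did not pass (adjusted p = 0.5 and 0.143), with levels as uneven as 138 ± 48.2 CPM in pLKO.1 with fulvestrant.

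TUG1, a broadly expressed lncRNA that owes its name to taurine treatment of retinal cells, rose with fulvestrant. It read 174, 159 and 147 CPM in untreated pLKO.1 and 192, 204 and 225 CPM with the drug, and 170.2, 161 and 154 CPM in untreated shp53 and 231, 257 and 229 CPM with the drug. Drug and untreated libraries did not overlap. The rise was 0.37 (SE 0.08, adjusted p = 0.00635) in pLKO.1 and 0.56 (SE 0.08, adjusted p = 0.000286) in shp53 cells. Knockdown gave 0.02 without drug and 0.21 with it (adjusted p = 1 and 0.169), and the latter passed when library 3 of pLKO.1 with fulvestrant was left out (0.30, adjusted p = 0.0348). TUG1 followed GAS5 closely, both over the 12 libraries (r = 0.979) and within groups (r = 0.95), where all 28 pairs of lncRNAs had a positive r. The nearest genes of all to TUG1 were TRAM1, C12orf23 and EIF4A2 (r = 0.997 each).

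PVT1, which lies downstream of MYC, fell with fulvestrant in both cell types, as did MYC. PVT1 read 26.1, 22.7 and 22.1 CPM in untreated pLKO.1 and 19.1, 18.5 and 18.1 CPM with the drug. The shp53 values were 23.5, 22.3 and 22.9 CPM untreated and 17.1, 19.5 and 17.7 CPM with the drug. The groups did not overlap in either cell type, and the changes were -0.35 (SE 0.08, adjusted p = 0.00703) and -0.34 (SE 0.08, adjusted p = 0.00514). Knockdown differences were -0.04 in both conditions (adjusted p = 1 and 0.8).

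MYC itself read 192, 207 and 231 CPM in untreated pLKO.1 and 161, 139 and 107 CPM with fulvestrant. In shp53 cells it read 191, 209 and 208 CPM untreated and 112, 89.1 and 109.5 CPM with the drug. Its changes of -0.63 (SE 0.14, adjusted p = 0.00686) and -0.97 (SE 0.14, adjusted p = 0.000294) were larger in size than those of PVT1, which was not tested. Of 9 genes of MYC and its partners, 1 rose and 2 fell in pLKO.1, where 13.4% of all genes rose and 14.3% fell. In shp53 cells 2 rose and 2 fell, where 21.3% of all genes rose and 19.6% fell. The MYC antagonist MXI1 was up by 0.44 and 0.62. On the other side of PVT1, GSDMC rose in shp53 cells by 0.55 (adjusted p = 0.0107).

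H19 and MEG3 could not be measured. Both had 0 counts in all 12 libraries, where 3 counts in a library, the limit that a count of 0 allows, stand for 0.107 to 0.141 CPM. The annotation behind the 2 rows and its use by RSEM are not stated, so the table alone cannot tell RNA below this limit from reads that were not assigned to these rows. Of the 22 rows listed for genes in or near the imprinted H19 and MEG3 regions, H19 and MEG3 among them, 6 passed the filter. Not all of these genes are themselves imprinted. IGF2, the growth factor gene next to H19, had 0 or 1 count per library, and DLK1 beside MEG3 had 0 in all. KCNQ1OT1, an imprinted lncRNA of the same chromosome arm as H19, was present at 43.1 ± 3.49 CPM in untreated pLKO.1 and rose with fulvestrant by 0.29 (adjusted p = 0.0404) and 0.41 (adjusted p = 0.00555). Among the other lncRNAs listed for comparison, HOTAIR had 1 count in all libraries together, and HOTTIP and HULC had 0.

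None of the 8 lncRNAs differed between pLKO.1 and shp53 cells in its response to fulvestrant after adjustment (edgeR; UCA1 alone had an unadjusted p under 0.05, and DESeq2 called 0), where 0.0255% of all genes tested did. In this fit the estimates furthest from 0 after UCA1 were -0.21 (SE 0.15) for SNHG1, 0.19 (SE 0.11) for TUG1 and 0.15 (SE 0.08) for DANCR. With the GC correction SNHG1 (-0.29) was further from 0 than UCA1 (0.22). MALAT1, GAS5 and PVT1 had estimates of -0.03, 0.04 and 0.01, with SEs of 0.18, 0.15 and 0.11. These 8 tests do not show that the responses were alike.

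The lncRNAs did not follow their coding neighbours in a single way. ZBTB37, which overlaps GAS5 on the genome, rose with GAS5, by 0.43 and 0.44 (adjusted p = 0.00532 and 0.00264). It is not stated whether counting used strand, so reads of these overlapping genes may not be fully separated. WDR74 and SLC3A2, on either side of SNHG1, changed by -0.55 and -0.80 and by -0.45 and -0.76, and all 4 changes passed. FRMD8, which lies beside NEAT1 and MALAT1, had differences of -0.21 and -0.42 that did not pass (adjusted p = 0.549 and 0.167). ERVMER34-1, beside DANCR, changed by -0.68 and -0.98 (adjusted p = 0.000487 and 2.16e-05), and USP46 on the other side by -0.09 and 0.06, which did not pass. Neither neighbour of UCA1 was measurable, with at most 12 counts for OR10H1 and 2 for CYP4F2.

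**Figure D4:**
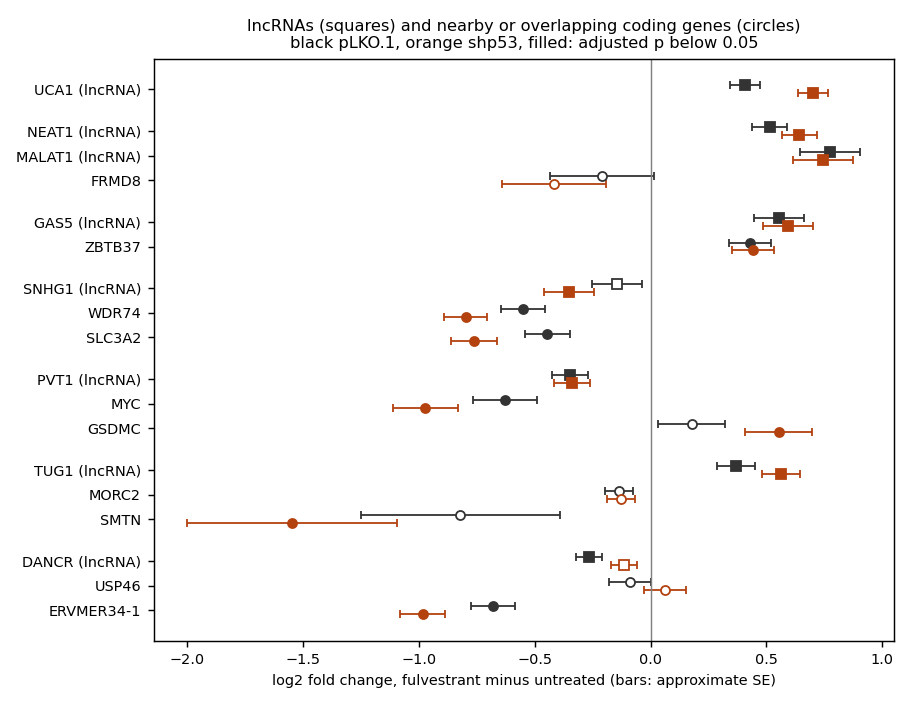
Log2 fold change with fulvestrant (x axis, bars of 1 approximate SE) of the lncRNAs (squares) and of nearby or overlapping coding genes (circles) in pLKO.1 (black) and shp53 (orange) cells, filled where the adjusted p is under 0.05. GAS5 and ZBTB37 both lie above 0, PVT1 and MYC both lie below it, and the circles for FRMD8 beside NEAT1 and MALAT1 are unfilled.

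A wider list of 40 measured cancer lncRNAs moved in both directions with fulvestrant (medians 0.30 in pLKO.1 and 0.33 in shp53 cells). In pLKO.1 cells 11 were higher and 4 lower, where 13.4% of all genes rose and 14.3% fell. In shp53 cells 16 were higher and 5 lower, where 21.3% of all genes rose and 19.6% fell. MIR22HG, the host of miR-22, rose from 8.31 ± 0.511 to 15.2 ± 0.861 CPM and from 7.75 ± 0.774 to 20.1 ± 1.02 CPM (adjusted p = 6.46e-05 and 1.24e-06). LINC00657, known as NORAD, a binder of Pumilio proteins, rose from 411 ± 29 to 634 ± 55.6 CPM and from 432 ± 19.2 to 741 ± 35.3 CPM (0.63 and 0.78). DLEU2 fell by 0.51 and 0.75 and DLEU1 by 0.74 and 0.85 on the log2 scale. Knockdown changed none of the 40 in untreated cells (edgeR, with 4 at an unadjusted p under 0.05 and 0 in DESeq2), where 1.58% of all genes were called. With fulvestrant it raised 2, LINC-PINT by 0.49 (adjusted p = 0.00903) and MIR22HG by 0.40 (adjusted p = 0.02), where 4.28% of all genes were higher.

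Across libraries, UCA1, NEAT1, MALAT1, GAS5 and TUG1 were lowest in untreated pLKO.1 cells and highest in shp53 cells with fulvestrant, with ratios of group means of 2.75, 1.74, 1.92, 1.70 and 1.49. PVT1, SNHG1 and DANCR covered narrower ranges of 1.3, 1.28 and 1.2. Within groups, the deviations of the 8 lncRNAs were positively correlated in all 28 pairs, from 0.108 for UCA1 with NEAT1 to 0.95 for GAS5 with TUG1. GAS5 and SNHG1 had r = -0.423 over the 12 libraries and r = 0.838 within groups. Deviations over 10179 genes were also correlated between libraries of different groups, with r from -0.934 to 0.94. Whether other genes vary together within groups as much as these lncRNAs was not tested. In untreated pLKO.1 library 1 had the highest value of each of the 8 apart from DANCR, where it tied with library 2 at the digits given. By pattern over the 12 libraries, the closest 3 genes were NR4A2, FRAS1 and MUC16 for NEAT1 (r = 0.983, 0.983 and 0.981), KIAA1109, RAB22A and ATP2B1 for GAS5 (r = 0.991, 0.99 and 0.989), and SLIRP, TATDN2 and DNAJB6 for PVT1 (r = 0.976, 0.972 and 0.965).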

How the data were processed

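The deposited table holds RSEM expected counts per gene for 12 libraries, which the authors gave as whole numbers and did not normalize, per the file headers and values. RSEM 1.3.3, Bowtie2, cutadapt, MultiQC and the build GRCh37/hg19 are named in the submitters' processing notes. No annotation release or strand setting is given in the sources used here. Reads shared by overlapping transcripts are split by RSEM, which makes such genes less certain. Of 57773 rows, 211 shared a symbol, and 6 columns that matched no sample were not used.

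Counts were analysed with edgeR 4.0.16 in R 4.3.3. Rounding left the values unchanged, filterByExpr kept 15715 genes and TMM factors ranged from 0.98 to 1.06. A robust quasi-likelihood model with a mean for each of the 4 groups was fitted. P-values were adjusted (Benjamini-Hochberg) over all genes within each comparison, with a threshold of 0.05. Standard errors are the log2 fold change over the square root of F and are approximate. DESeq2 1.42.0 was an alternative. The steps were tested on simulated counts.

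The lncRNAs, gene lists and tests were chosen with earlier results of these data known. Named genes were the 10 lncRNAs, GREB1, MYC, IGF2, nearest and overlapping neighbours, up to 4 genes per list and comparison with the smallest adjusted p under 0.05, and for each measured lncRNA the 3 genes of most similar pattern (mean log2 CPM of at least 1). Cell type markers and the list genes SFPQ, NONO, UPF1, SNHG5, DLEU1, DLEU2, DLK1, HOTAIR, HOTTIP and HULC were named after their values were seen. Same-numbered libraries had positively correlated deviations in the untreated groups (r = 0.871, 0.184 and 0.807). For number 2, unlike-numbered libraries matched better, with r = 0.547 for pLKO.1 library 2 with shp53 library 3. The main model used no pairing. An alternative fit, given below, took the numbers to pair the untreated libraries, which these values do not settle. In the other comparisons at least 1 pair had a negative r. Reference sequences come from another build than the counts and were joined by name. Some genes and a sequence that these rules would name are not reported here.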

Additional observations from a re-analysis of the deposited data

How the results depend on the processing

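Among the results for single lncRNAs under the alternatives, 648 kept their direction and their side of the threshold, 20 kept the direction but lost the call, 4 gained a call and 24 changed sign. The cause of these changes was not tested. UCA1 remained called in its 4 comparisons under every alternative run. With the GC correction the rises with fulvestrant were smaller and each still passed. In pLKO.1 cells UCA1, NEAT1, MALAT1, GAS5 and TUG1 gave 0.36, 0.46, 0.70, 0.48 and 0.30. In shp53 cells they gave 0.58, 0.50, 0.59, 0.44 and 0.41. Among those with negative estimates, PVT1 gave -0.35 and -0.37 and DANCR -0.25 and -0.10 in pLKO.1 and shp53 cells, and SNHG1 is given above.

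The number of lncRNAs higher with knockdown in fulvestrant was 1 instead of 2 with DESeq2 size factors, upper quartile factors, no low count filter, only the 6 libraries compared, the replicate block, the GC correction, and both together, and 1 to 2 with single libraries left out. NEAT1 was the call that was lost.

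All genes called for knockdown in untreated cells numbered 145 with the replicate block on all libraries and 436 with the GC correction, against 249, and 126 to 189 with a library left out. The replicate block on the untreated libraries alone took same-numbered libraries as pairs. It gave 219 calls (319 with the GC correction as well, both chosen after seeing the data), and no lncRNA changed its call. For knockdown in fulvestrant the 1103 calls became 229 with only the compared libraries, 620 with the block and 1897 with the GC correction, and 456 to 2270 with a library left out, the highest without library 3 of pLKO.1 with fulvestrant. The share of higher calls there fell from 60.9% to 38.9% with the GC correction. Upper quartile factors raised it to 61.5% and 62.8% for fulvestrant in pLKO.1 and shp53 cells, from 48.4% and 52.1%. Differences in response numbered 4, against 0 with upper quartile factors, no filter or the block, 2 without robust fitting, 9 with a minimum of 10 counts in 3 libraries, 22 with block and GC correction, 45 in DESeq2 and 94 with the GC correction, and 0 to 7 with a library left out.

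The changes of sign were in values near 0. The difference in response of PVT1 was -0.0106 without filter, -0.0233 with the GC correction and -0.0241 with block and GC correction. That of GAS5 was -0.0397 with the GC correction and -0.0385 with block and GC correction. TUG1 with knockdown in untreated cells was -0.0019 with the GC correction, -0.0017 with the block as well, and -0.0018 with the block on the untreated libraries. Leaving out a library gave knockdown differences in untreated cells of -0.0912 to 0.0327 for PVT1 and -0.045 to 0.0813 for TUG1. In fulvestrant they were -0.2048 to 0.0276 for SNHG1 and -0.1248 to 0.0065 for PVT1. Differences in response ranged from -0.1465 to 0.0757 for MALAT1, -0.059 to 0.1657 for GAS5 and -0.0779 to 0.0535 for PVT1. The lowest counts among the measured lncRNAs were those of PVT1, at 372 to 733 per library.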
